A study of Mus musculus with 1 sample.

Results

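The insulin-like growth factor (IGF) genes were described in RNA of ovarian surface epithelium, the layer of cells that covers the ovary, from mice of wild-type genotype at 3 months of age. The RNA had been measured on 1 Affymetrix array. The set comprised the ligand genes Igf1 and Igf2, the IGF2 receptor gene Igf2r, and the 7 IGF binding protein genes Igfbp1 to Igfbp7. Its 10 genes were chosen by name, with the intensities of this array already known, so these intensities are given as a description and without a test. All 10 were on the array, with 24 of the 34945 probe sets that had a single gene symbol, out of 18193 genes in all. The series compared mouse genotypes, of which the wild type was analysed here. Its strain, the number of mice behind the RNA and any culture of the cells are not stated in the labels. With 1 array, no value has a replicate error and no p-value can be given.

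IGF1 and IGF2 are small secreted hormones related to insulin that promote growth and survival of cells through the IGF1 receptor, a tyrosine kinase that signals through insulin receptor substrates, PI3-kinase and AKT. IGF2 is also bound by the IGF2 receptor, which carries it to lysosomes for breakdown. The classical binding proteins, IGFBP1 to IGFBP6, hold both ligands with high affinity outside the cell, can limit or prolong their action, and release them when proteases cut them. IGFBP7 is a related protein that binds IGFs weakly. In the ovary the system is known for its action with gonadotropins on follicle growth and steroid production.

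A gene was read as above background where its brightest probe set exceeded an intensity of 46.5. This limit is the 95th percentile of 126 probe sets for keratin-associated proteins and for receptors of smell, pheromones and bitter taste, none of which has a known role in this epithelium. Their median was 13 and their highest value 125. Of the 10 genes 9 were above it, against 62.8% of all 18193 genes. Genes with more probe sets pass more often. All genes with the same numbers of probe sets as these 10 would pass in 69.3% of cases. Counted by probe set, 22 of 24 exceeded the limit, against 55.1% of all probe sets with 1 gene symbol, and 18 of the 24 were brighter than every background probe set. The median log2 intensity of the brightest probe set was 11.51 over the 10 genes and 7.06 over all genes. These medians were not matched for numbers of probe sets, and the brightest values of Igfbp5 and Igfbp7 each rested on 1 probe set. The genes below or near background were Igfbp1 and Igf2. Probe sets of different genes differ in how well they bind their target, so the genes are not ranked against each other.

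**Figure D1:**
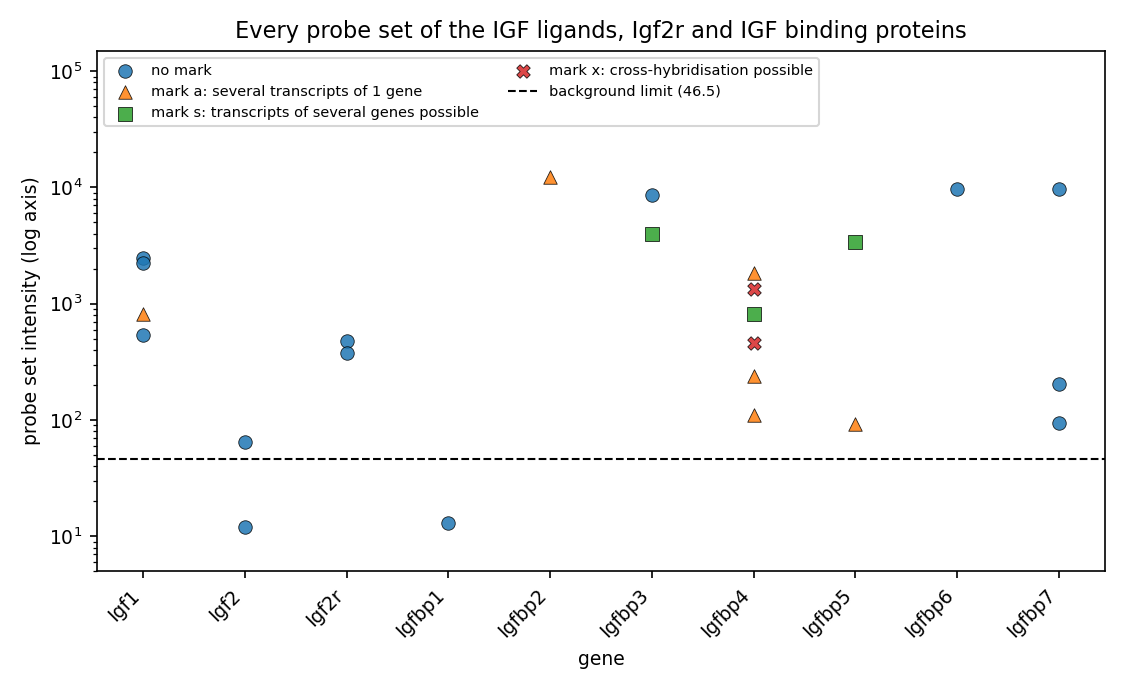
Intensity (log axis) of each of the 24 probe sets of the 10 genes in the wild-type sample, 1 point per probe set, with the background limit of 46.5 as a dashed line. The symbols show the mark in the probe set identifier. Igfbp1 and 1 of 2 probe sets of Igf2 lie below the line, and the probe sets of Igfbp5 and Igfbp7 are spread most widely.

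**Figure D2:**
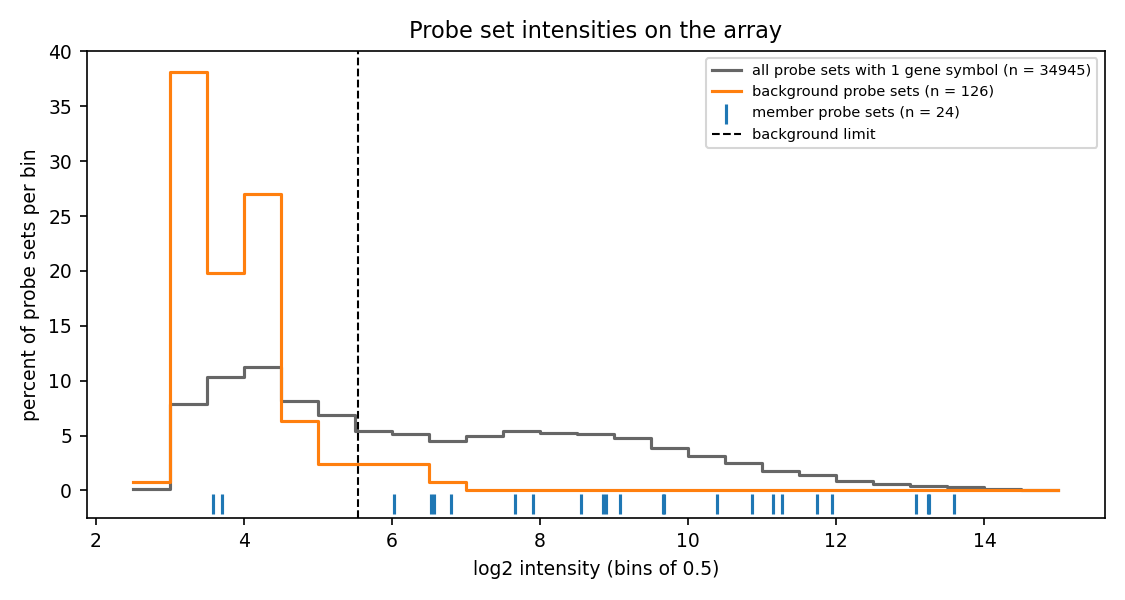
Percent of probe sets per bin of log2 intensity, for all 34945 probe sets with 1 gene symbol and for the 126 background probe sets, with the 24 probe sets of the IGF genes as ticks and the limit as a dashed line. The ticks lie mostly to the right of the background, with 2 to the left of the limit.

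Of the ligands, Igf1 was well above background and Igf2 was near it. Igf1 encodes the ligand that in the body comes mainly from liver and acts locally in many tissues. Its 4 probe sets had intensities of 540, 809, 2257 and 2465. All 4 exceeded the brightest background probe set, and the lowest stood 3.54 log2 units above the limit. The probe set at 809 has an identifier that marks several transcripts of the same gene, and Igf1 is known to be spliced into several forms.

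Igf2 is an imprinted gene, expressed from the paternal copy, that is abundant in fetal tissue and falls after birth in mice. Its 2 probe sets gave 65 and 12. The first exceeded the limit by 0.48 log2 units, and 4 of the 126 background probe sets were as bright or brighter. The second was below the background median, with 77 background probe sets as bright or brighter. Both were designed from the same transcript record, and they lie on opposite sides of the limit. With the mean or the lowest of both probe sets, or with a limit at the 99th percentile or from keratin-associated proteins and taste receptors, Igf2 was not above background. An array signal at this level does not show that the transcript is absent.

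Igf2r, the receptor that clears IGF2 and also delivers mannose-6-phosphate-tagged enzymes to lysosomes, had 2 probe sets at 374 and 476. They agreed more closely than those of any other gene of the set with several probe sets, with an SD of 0.25 on the log2 scale. Another probe set, shared by Igf2r and the RNA gene Airn that overlaps it, had 17, below the limit, and was not counted. Airn is a non-coding RNA known to silence the paternal copy of Igf2r. Its own 5 probe sets had 23, 28, 91, 116 and 132, of which 3 exceeded the limit. Only the probe set at 132 also exceeded the brightest background probe set, at 125.

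The binding proteins were above background in 6 of 7 cases, beside 62.8% of all genes. By probe set, 15 of their 16 exceeded the limit, beside 55.1% of all probe sets with 1 gene symbol. Read at the lowest probe set, 6 of 7 still passed, beside 39.7% of all genes. Igfbp2, which encodes a binding protein with some preference for IGF2, had 1 probe set at 12305. Igfbp3 encodes the main carrier of IGFs in the blood. Its 2 probe sets gave 3946 and 8641, the first with an identifier that may mark transcripts of several genes. They lay 6.41 and 7.54 log2 units above the limit.

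Igfbp6 encodes the binding protein with a marked preference for IGF2. Its only probe set had 9779, brighter than all 126 background probe sets. Igfbp6 and Igfbp2 were thus bright on their only probe set, while the probe sets of Igf2 itself were at 12 and 65. These are levels of different genes on different probes, and only their places above or near the limit can be read.

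Igfbp4, which encodes a binding protein that inhibits IGF action and is cut by the protease PAPP-A, had 6 probe sets, all above the limit. They came as 3 pairs, each designed from 1 transcript record. The brightest pair had 1852 and 1340, the middle pair 818 and 460, and the dimmest 240 and 111. Within a pair the values differed by 1.38 to 2.16 times, whereas the brightest and the dimmest probe set differed by 16.7 times. The probe sets at 1340, 818 and 460 have identifiers that mark possible binding of transcripts of other genes, and those at 1852, 240 and 111 mark transcripts of this gene. The gene was above background on every pair, but its level depended on the pair read.

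Igfbp5 encodes a binding protein that also binds extracellular matrix. Its 2 probe sets gave 3429 and 92, a difference of 37.3 times. The brighter has an identifier that may mark transcripts of several genes. The dimmer, which is marked for transcripts of this gene, stood 0.98 log2 units above the limit. The brightest background probe set, at 125, exceeded it. A high level of Igfbp5 therefore rests on 1 probe set that could also bind other transcripts, and whether it does was not tested.

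Igfbp7 encodes a matrix-associated protein, also known as Mac25, that is abundant in vessel walls and stroma. Its 3 probe sets gave 9667, 202 and 95, a range of 102 times, although none carries a mark. All 3 exceeded the limit, but the level again rested on 1 probe set. Where along the transcript they lie was not analysed here.

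Igfbp1 was the binding protein gene not above background. It encodes a protein made mainly by liver and by decidual endometrium, where insulin lowers it. Its 1 probe set had 13, equal to the median of the background, and 68 of the 126 background probe sets were as bright or brighter. Igfbp1 stayed below the limit under the 5 alternatives that changed the limit or the probe sets admitted, and with 1 probe set the other 2, which change the summary per gene, could not alter its value. A poorly binding probe set and a missing transcript cannot be told apart.

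In the mouse reference, Igfbp1 and Igfbp3 are neighbours on chromosome 11 with no other protein-coding gene between them, and the array read 13 for the first and 3946 and 8641 for the second. The 250 bases before the start of each gene in the RefSeq promoter table (build GRCm38.p6) are shown because the neighbours fell on opposite sides of the limit. The sequences are written 5′ to 3′ on the strand of the gene, with CpG dinucleotides, the sites of DNA methylation in mammals, in capitals. The Igfbp1 window is chr11:7197537-7197786 on the plus strand and the Igfbp3 window is chr11:7213924-7214173 on the minus strand.
Igfbp1: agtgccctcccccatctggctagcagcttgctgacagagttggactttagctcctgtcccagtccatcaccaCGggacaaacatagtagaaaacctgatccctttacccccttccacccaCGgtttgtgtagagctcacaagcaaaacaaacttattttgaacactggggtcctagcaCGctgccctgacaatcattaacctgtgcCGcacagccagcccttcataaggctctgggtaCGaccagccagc
Igfbp3: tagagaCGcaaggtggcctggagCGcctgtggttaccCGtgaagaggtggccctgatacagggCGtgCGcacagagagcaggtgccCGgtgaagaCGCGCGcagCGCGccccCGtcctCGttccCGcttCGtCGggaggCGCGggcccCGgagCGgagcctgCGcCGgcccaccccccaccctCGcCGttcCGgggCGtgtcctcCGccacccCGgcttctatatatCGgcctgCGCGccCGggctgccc

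The Igfbp1 window held 5 CpG dinucleotides and the Igfbp3 window 32, against a median of 6 over 32851 windows, of which 95.4% had fewer than that of Igfbp3. Their GC contents were 53.2% and 73.2%. The TATA box motif TATAAA occurred on either strand in 12.4% of all windows, the GC box motif GGGCGG in 32.7% and the CAAT box motif CCAAT in 33.8%, and neither printed window held any of these letters in that order. The GC box motif contains a CpG, so it overlaps the CpG count. The start used for Igfbp3 lies inside the span of the gene in the same reference, so other transcripts start further upstream. Igfbp1 was the only gene of the set below the limit, so the count could not be compared between genes above and below it. Of the genes above it, the Igf1 window also had 5 CpG dinucleotides and the Igfbp6 window had 7. The Igf1 start likewise lies inside the span of its gene, whereas those of Igfbp1 and Igfbp6 lie at its edge. Methylation and transcription starts were not measured here.

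**Figure D3:**
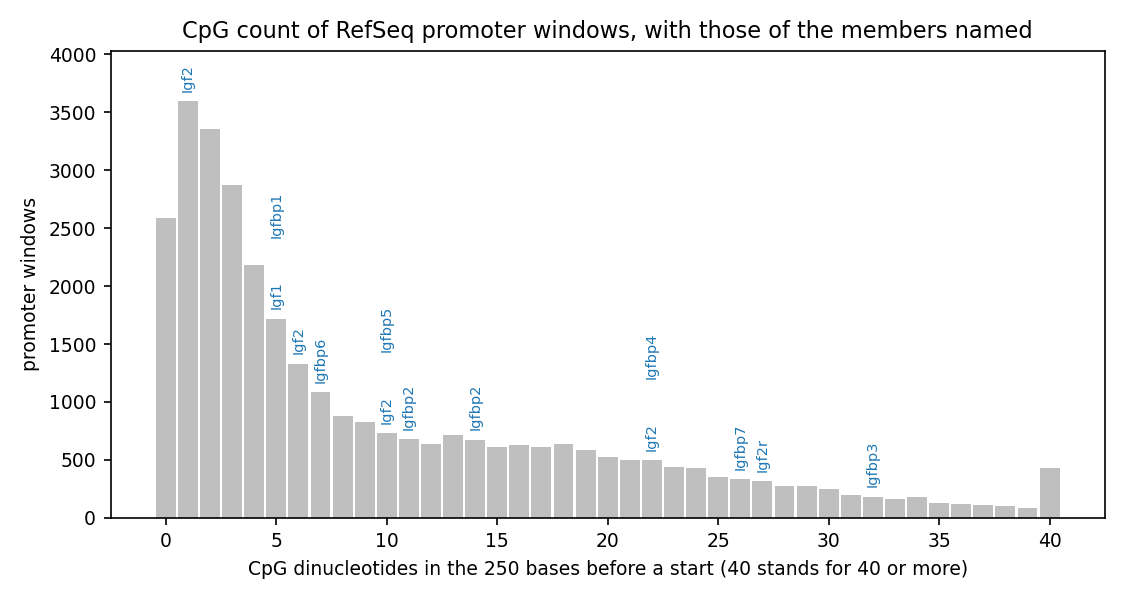
Number of promoter windows (bars) by their count of CpG dinucleotides in the 250 bases before a gene start, over 32851 windows, with the 14 windows of the 10 IGF genes named above the bars. Igfbp3 has 32 and Igfbp1 and Igf1 have 5, and the 4 windows of Igf2 run from 1 to 22.

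Igfbp2 and Igfbp5 are likewise neighbours, on chromosome 1, and both were above the limit. Igf2 lies next to Ins2, an insulin gene, on chromosome 7. Igfbp4 also lies on chromosome 11, away from the first pair, and Igf1, Igf2r, Igfbp6 and Igfbp7 lie on chromosomes 10, 17, 15 and 5.

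The only spread that a single array offers is that between probe sets of a gene. Over the 7 genes of the set with several probe sets the median SD was 1.54 on the log2 scale, beside 1.39 over the 9010 such genes on the array. It was 3.69 for Igfbp5, 3.58 for Igfbp7, 1.72 for Igf2, 1.54 for Igfbp4, 1.09 for Igf1 and 0.80 for Igfbp3. Even so, Igf2 was the 1 gene of the 7 with probe sets on both sides of the limit, as were 46.7% of all genes with several probe sets. A wide spread in this set thus lay mostly above the limit. It is not a replicate error.

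Other genes of the pathway were mostly above background as well, with 48 of 59 measured genes (81.4%) beside 62.8% of all genes. All genes with the same numbers of probe sets as these would pass in 70.3% of cases. Among receptors 5 of 6 passed, but by probe set only 8 of 16 exceeded the limit, beside 55.1% of all probe sets with 1 gene symbol. Igf1r, the receptor that carries the IGF signal, gave 314, 392 and 599 on 3 of its 5 probe sets, with the others at 23 and 36, below the limit. Insr, the insulin receptor, had 438 on 1 of 3 probe sets and 15 and 25 on the others. Insrr, an insulin receptor relative, had 21 and was the receptor that did not pass.

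Of 4 measured insulin-family ligands besides the IGFs, each with 1 probe set, 2 were above the limit, beside 47.3% of all genes with 1 probe set. Ins2, which encodes an insulin, had 100, below the brightest background probe set at 125. Insl6, an insulin-like peptide of the testis, had 257. Insl5 had 15 and Rln1, which encodes relaxin, had 13.

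Carriers and other proteins with an IGFBP-type domain were above background in 9 of 13 cases (69.2%), beside 62.8% of all genes. Igfals, which holds IGF and IGFBP3 in the large complex of the blood and is made by liver, had 20, below the limit. Igfbpl1, an IGFBP-like protein, had 42 and 58. Htra1, a secreted serine protease with such a domain that can cut binding proteins, had 10015 and 10327. Besides Igfals, the members below the limit were Esm1, Ccn3 and Ccn6. Kazald1 and Ccn5 passed at 76 and 73, which, like the 58 of Igfbpl1, is below the brightest background probe set at 125. Esm1, Ccn3, Ccn6, Kazald1 and Ccn5 were named after their values were seen.

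Proteases that cut binding proteins, with their inhibitors, were above background in 7 of 10 cases, beside 62.8% of all genes. Pappa, which encodes PAPP-A, the protease of IGFBP4, gave 116 and 513 on 2 of its 3 probe sets, with the third at 22, below the limit. Its relative Pappa2, a protease of IGFBP3 and IGFBP5, had 33. Stc1, a stanniocalcin that inhibits PAPP-A, had 30 and 134. Adam28 and Mmp7 also fell below the limit and were named after their values were seen.

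Signal transducers downstream of the receptors were above background in 15 of 16 cases, beside 62.8% of all genes. Most have several probe sets, and by probe set 37 of 47 exceeded the limit, beside 55.1% of all probe sets with 1 gene symbol. Irs1 and Irs2, the main insulin receptor substrates, had 1383 and 149. Irs4, a substrate of restricted expression, had 12 and 16 and was the transducer below the limit. All 5 genes of the growth hormone axis, which drives Igf1 in liver, passed, with 12 of 15 probe sets above the limit. Ghr, the growth hormone receptor, had 61, 686 and 2726, Jak2, its kinase, had 208 and 705, and Stat5a, its transcription factor, had 31 and 194.

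Of the 3 Igf2 mRNA-binding proteins, which are mainly fetal, 2 were measured and both passed narrowly, while Igf2bp2 had no probe set of its own in the annotation used. Igf2bp1 reached 87 on 1 of its 4 probe sets and Igf2bp3 reached 76 on 1 of its 6, while the others were below the limit. Each is below the brightest background probe set at 125. Of the genes that control imprinting or transcription of Igf2 and Igf2r, Ctcf, an insulator protein, had 332 and 887, and Plagl1, an imprinted transcription factor, had 455 on 1 of 3 probe sets and 13 and 27 on the others. H19, the non-coding RNA gene that shares control elements with Igf2, had no probe set of its own in the annotation used. A probe set that names both H19 and Mir675, a microRNA made from H19, had 1523 and was not counted.

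**Figure D4:**
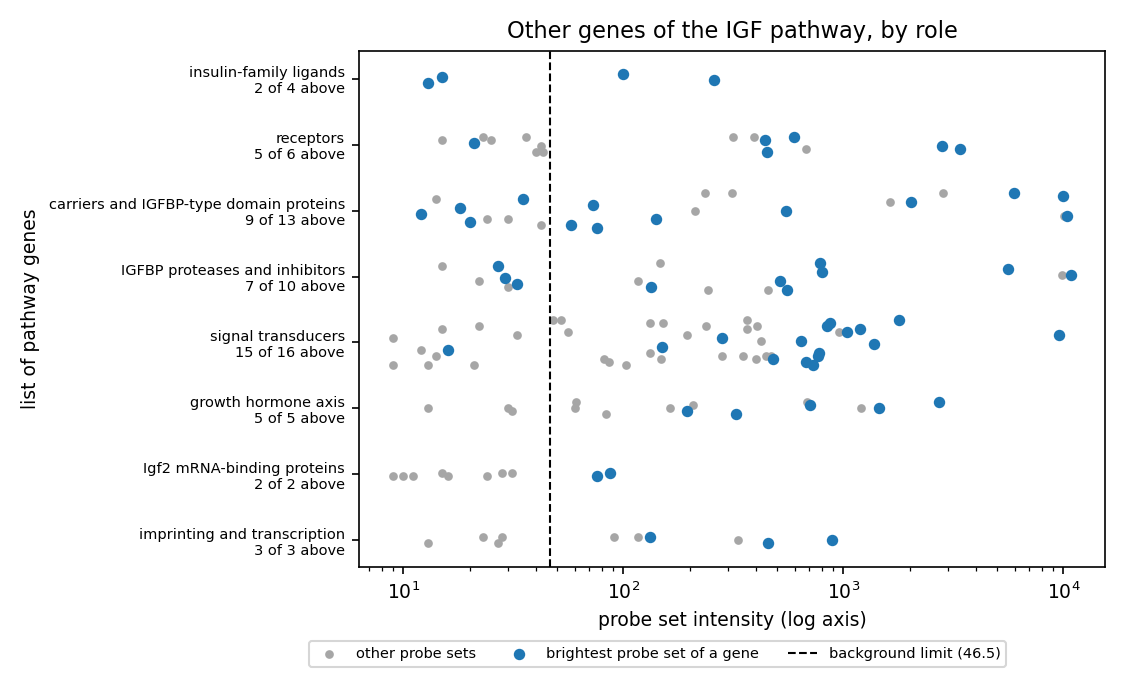
Intensity (log axis) of the probe sets of 59 measured genes of the IGF pathway, grouped by role, with the brightest probe set of each gene in blue, its other probe sets in grey and the background limit of 46.5 as a dashed line. The signal transducers lie mostly to the right of the line (15 of 16 genes), and the 2 measured Igf2 mRNA-binding proteins lie just beyond it.

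The sample is labelled as surface epithelium, and all 10 measured markers of surface epithelium and mesothelium were above the limit, Krt7 at 8204 and Krt8 at 3172 to 4573 among them. Markers of other cells are given beside the 62.8% of all genes that passed. Of fibroblast markers 7 of 8 passed, of smooth muscle and pericyte markers 6 of 7, of granulosa markers 5 of 6, of theca and luteal markers 3 of 4, and of macrophage markers 5 of 7. Endothelial markers passed in 1 of 7 cases and oocyte markers in 0 of 6. Col1a1 and Col1a2, collagen genes of fibroblasts, reached 8290 and 29972, though Col1a2 had 159 on 1 of its 3 probe sets. Lum had 307, and Fap, the fibroblast marker that did not pass, had 36. Acta2 and Tagln, of smooth muscle, reached 23141 and 22357, but Acta2 also had 327 and 23, the latter below the limit. Rgs5, a pericyte marker, had at most 16. Of the granulosa markers Amh and Fshr had 58 and 34, but Inha, Fst, Inhba and Foxl2 reached 1438, 873, 797 and 321. Of the theca and luteal markers Cyp11a1 and Cyp17a1 had at most 381 and 18, but Star had 947, 1196 and 1229. Of the macrophage markers Csf1r reached 527, and Adgre1, at 47, was at the limit. Mrc1 and Cd163 had 16 and 10, below it. Pecam1 and Cdh5, of endothelium, had 14 and at most 23, and Kdr, at 1813, was the endothelial marker that passed. Zp2 and Zp3, of oocytes, had 16 and 20. Lum, Fap, Rgs5, Inha, Fst, Inhba, Foxl2, Star, Mrc1, Cd163 and Kdr were named after their values were seen. Whether the markers of other cells came from such cells or from the surface epithelial cells themselves was not tested. In RNA from mixed cells, fewer cells of a type and less RNA per cell cannot be told apart. The part of each cell type in the IGF transcripts was not tested.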

How the data were processed

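RNA was extracted with a column kit and labelled with biotin from 5 ug of total RNA, per the labels' protocols. The authors deposited 1 intensity for each of 45101 probe sets; affy and RMA, which corrects background, normalizes between arrays and summarises probe sets, are named in the submitters' processing notes. Their versions and the set of arrays normalized with this one are not stated. All deposited intensities were whole numbers from 6 to 32341 on a linear scale, although RMA usually gives log2 values; they were put on the log2 scale. Rounding moves a value at the limit by 0.015. RMA compresses differences between low intensities.

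Probe sets were named through the platform annotation. The 932 probe sets with several symbols, 9160 without one and 64 controls were left out. All 10 gene numbers of the members matched the mouse RefSeq table, and 6 listed symbols were updated through its synonyms. A gene was read at its brightest probe set. The members and lists were chosen with earlier results of these data known. The text gives every member, the first 3 measured genes of each pathway list in written order (all where 4 or fewer were measured), Igf1r, Insr, Igfals, Pappa and H19, and the first 2 markers of each cell type; other names are marked as chosen afterwards. Alternatives changed the percentile (90th, 99th), the background families, the summary per gene and the probe sets admitted. No protein sequences were used here. The software was pandas 2.3.3 with NumPy 2.4.6 in Python 3.11.15, and figures were drawn with matplotlib 3.10.9. An array has no read depth.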

Additional observations from a re-analysis of the deposited data

Results flagged for a closer look

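Among probe sets left out of the counts because they name several genes, 3 that name a gene of the pathway lists exceeded the background limit of 46.5. One shared by H19 and Mir675, a microRNA made from H19, had 1523. One shared by Jak3 and Insl3, a peptide hormone of theca and Leydig cells, had 202, while another with the same pair of names had 13. One shared by Foxo3 and Gm38485 had 60. Which of the named genes gave each signal was not tested.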

How the results depend on the processing

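Under 7 alternatives the number of IGF genes above background was 8 or 9 wherever all 10 were measured, and 9 was the value reported. The share of all genes above the limit ran from 39.7% with the lowest probe set to 73.2% at the 90th percentile. Without marked probe sets 6 of 7 measured IGF genes were above background, beside 59.2% of all genes. That alternative leaves out Igfbp2, Igfbp4 and Igfbp5, since all their probe sets are marked. The same alternative lowered the count of probe sets above the limit from 22 to 11, by leaving fewer probe sets. Igf2 was the gene whose call changed. Its level against the limit, 0.48 log2 units in the setting reported, was -0.38 at the 99th percentile, -0.14 with keratin-associated and taste receptor probe sets as background, -0.74 with the mean of its probe sets and -1.95 with the lowest. Pathway genes above background numbered 48 of 59 in the setting reported, beside 62.8% of all genes. They numbered 28 when genes were read at their lowest probe set, beside 39.7% of all genes. The other 6 alternatives gave 39 to 52, beside 55.3% to 73.2% of all genes. The 39 came without marked probe sets, where 59.2% of all genes passed. Only 16591 of the 18193 genes were measured there, so the 39 may be out of fewer than 59. The median SD between probe sets of a gene was 1.54, 1.31 over probe sets above the limit, and 1.48 over unmarked ones. No paired analysis was possible because there is 1 sample. With 1 array, signal over background is the only guide to precision, and levels near the limit of 46.5, such as those of Igf2, Igf2bp1 and Igf2bp3, are the least certain.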
